A study of Mus musculus with 2 samples.

Results

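A set of 7 genes for secreted ligands of the TGF-beta superfamily were followed across the cell types of the embryonic mouse eye: the 3 TGF-beta genes Tgfb1, Tgfb2 and Tgfb3 and the bone morphogenetic protein genes Bmp2, Bmp4, Bmp5 and Bmp7. They were taken by gene symbol, and each of the 7 was found among the 31053 genes of the count tables. Single-cell RNA was measured with droplet 3′ libraries from e15.5 embryos in 1 control library and 1 mutant library, each made from 3 pooled eye cups without cornea, lens and optic nerve. Control embryos were Myrf fl/fl, with both Myrf copies floxed and no Cre. Mutant embryos carried the same floxed alleles with Rx>cre, whose Cre, under Rx regulatory sequence, deletes the floxed gene in the early eye field, the source of retina and retinal pigment epithelium (RPE) but not of the neural crest mesenchyme, vessels or blood around it. Because each genotype is a single library of pooled tissue, no test between genotypes was possible. All intervals below are exact 95% intervals that cover counting error only, and litter, sex, pool and library cannot be told apart from genotype.

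TGF-beta ligands bind Tgfbr2 and Tgfbr1 and signal through Smad2 and Smad3, whereas BMP ligands bind Bmpr2 with Bmpr1a, Bmpr1b or Acvr1 and signal through Smad1, Smad5 and Smad9, with Smad4 shared by both branches. Secreted antagonists such as noggin and follistatin hold ligands away from receptors, and TGF-beta is released latent and must be freed before it acts. In the eye, Bmp4 and Bmp7 are needed for early lens and optic cup formation, Bmp4 patterns the dorsal retina, Bmp2 made by the RPE has been tied to eye growth, and Tgfb2 is required for normal development of the tissues around the lens and cornea.

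The control library held 13017 barcodes with 132436812 unique molecular identifiers (UMIs, single captured RNA molecules) and the mutant library 13880 barcodes with 135678970, at median depths of 9339 and 8702 UMIs. After removal of 1075 and 862 barcodes by quality filters and of 424 and 442 called doublets, 11518 control and 12576 mutant cells were kept, of which 59 in each library shared a barcode sequence with the other. UMIs of Y-linked genes occurred in 3 control cells but in 5249 mutant cells (41.7%), so the pools differed in sex as well as in genotype. Clusters left without a name held 22.4% and 21.6% of kept cells. The RPE-like class was defined by pigment and visual cycle markers and held 363 control and 192 mutant cells, 3.15% and 1.53% of kept cells, at median depths of 7029 and 4185 UMIs. Its late marker Rpe65 was at 0 in both libraries, while Pmel, a melanosome protein, stood at 7835 and 7747 CPM (a gene's count scaled to a class total of 1000000 UMIs). The other markers of the list of 12 were mixed, with 4 of 12 higher in mutant. Ttr was at 1.10 (1.07 to 1.14), and Dct, Tyr and Serpinf1 lay within counting error of 1. Lower markers had ratios of 0.666 (0.595 to 0.744) for Rlbp1, 0.572 (0.429 to 0.754) for Rrh, 0.742 (0.650 to 0.846) for Mitf and 0.860 (0.826 to 0.894) for Trpm1, and Rgr had 17 UMIs in control and 0 in mutant. Of the melanocyte markers, Pax3 had 0 and 1 UMIs, Kit was at 1.19 (0.891 to 1.58) and Ednrb was higher at 23 and 30 UMIs (2.66, 1.49 to 4.79). Myrf, the targeted gene, was counted 293 times in control and 55 times in mutant RPE-like cells, 77.7 against 29.7 CPM, a ratio of 0.382 (0.281 to 0.511).

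Tgfb1 lies on chromosome 7 (GRCm38, 25687002 to 25705077, plus strand), Tgfb2 on chromosome 1 (186622792 to 186705989, minus strand) and Tgfb3 on chromosome 12 (86056745 to 86079041, minus strand). Bmp2 and Bmp7 lie apart on chromosome 2 (133552159 to 133562885, plus strand, and 172868012 to 172940321, minus strand), Bmp4 on chromosome 14 (46383520 to 46390669, minus strand) and Bmp5 on chromosome 9 (75775364 to 75900310, plus strand). Annotated genes overlap Tgfb2, Tgfb3, Bmp4 and Bmp5, all on the opposite strand except 1 uncounted entry at Bmp5, and how reads were split between strands was not checked. Levels are in CPM, and since 3′ tags are not scaled to length, levels were compared between classes and libraries and not between genes.

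Tgfb1, the ligand best known from immune regulation and vessels, was concentrated in blood-borne and vascular classes. In immune-like cells it stood at 157 CPM in control (139 to 176) and 170 in mutant (155 to 187). In endothelial-like cells it stood at 131 (116 to 146) and 113 (97.3 to 131). A small cluster led by the mast cell protease genes Cma1 and Cpa3, with 10 control and 9 mutant cells, reached 152 and 114 CPM. These 3 classes had overlapping intervals in the control library, whereas in the mutant library the immune-like interval lay above the endothelial-like interval, and all 3 stood above pericyte-like cells, next at 20.5 and 26.3 CPM. Tgfb1 was nearly absent from RPE-like and retinal progenitor-like cells: 2 UMIs were counted in RPE-like cells of each library, and retinal progenitor-like cells held 6 and 10 UMIs, 0.228 and 0.273 CPM. It was low but present in neurogenic progenitor-like cells, at 4.94 and 4.18 CPM, and in amacrine or horizontal cell-like cells, at 4.45 and 3.49. Within the neurogenic progenitor-like class, the cluster led by Gal and Pou4f2 held 36 UMIs in each library, 13.9 and 14.6 CPM.

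Tgfb2 was the broadest of the 7. Its highest level was in an unnamed cluster led by Cartpt, Pax2 and Zic1, with 444 CPM in the 56 control cells (391 to 502) and 603 in the 52 mutant cells (544 to 666). The optic stalk or glia list scored best there, but 2 of its 4 markers were detected and the leading genes went against that name. The cluster also held UMIs of 7 (control) and 8 (mutant) of 8 ciliary margin markers, a count of any UMI that does not name it. Tendon-like mesenchyme, marked by Scx and Tnmd, followed at 432 (411 to 454) and 400 (374 to 428). Pericyte-like cells, keratocyte-like mesenchyme, retinal progenitor-like cells, RPE-like cells and periocular mesenchyme-like cells made a middle group between 136 and 186 CPM in control and between 117 and 169 in mutant. Among retinal progenitor-like clusters, the cluster led by Ccnb2 stood at 105 and 116 CPM, below the 159 to 192 CPM of the other 3 control clusters and the 164 to 187 of the mutant ones. Neurogenic progenitor-like cells, at 36.6 and 42.0 CPM, and the neuronal classes were lower than retinal progenitor-like cells. The neuronal classes stood at 62.3 and 57.4 CPM in photoreceptor precursor-like, 57.8 and 49.1 in amacrine or horizontal cell-like and 3.79 and 6.31 in retinal ganglion cell-like cells. Erythroid-like cells, which should lack the gene, held 0.263 and 1.32 CPM, a rough measure of the background of free RNA. Their median depths were 16838 and 16806 UMIs, against 7029 and 4185 in RPE-like cells, so this measure may be too low for shallower classes.

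Tgfb3 was foremost a mesenchymal transcript. Tendon-like mesenchyme stood at 52.1 CPM (44.9 to 60.0) and 68.9 (58.2 to 81.1), and periocular mesenchyme-like cells at 36.4 (34.1 to 38.7) and 34.8 (32.2 to 37.6). Within the latter, the cluster led by Tagln, Crym and Cxcl12 was the richest, at 48.8 and 44.3 CPM. Amacrine or horizontal cell-like cells were the main neural class, at 27.9 and 27.7 CPM, and their cluster led by Ptf1a and Prdm13 reached 31.4 and 32.8 CPM against 14.3 and 13.9 in the cluster led by Onecut2, Tfap2a and Lhx1. RPE-like cells held 15 and 10 UMIs.

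**Figure D1:**
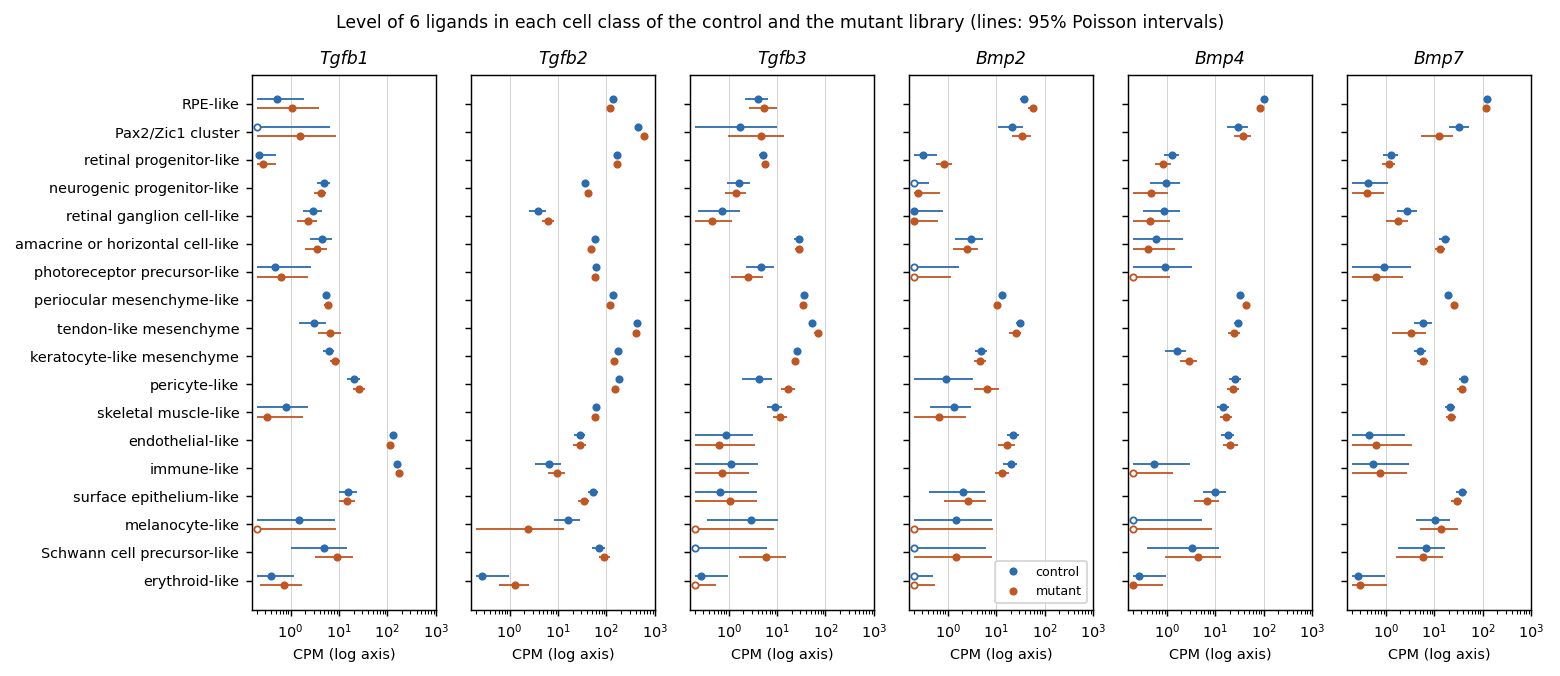
Level of 6 ligands (CPM, log axis) in 18 cell classes, with 1 point for the control and 1 for the mutant library and exact 95% Poisson intervals as lines (open points hold no UMI, values below 0.2 CPM are drawn at 0.2, and Bmp5 and the Cma1/Cpa3 cluster are left out). Bmp2, Bmp4 and Bmp7 have their highest point in RPE-like cells, Tgfb1 in immune-like and endothelial-like cells, and Tgfb2 in the Pax2/Zic1 cluster.

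Among the classes, Bmp2, Bmp4 and Bmp7 each had their highest level in RPE-like cells. Bmp2 stood there at 37.1 CPM in control (31.2 to 43.8) and 56.7 in mutant (46.4 to 68.7). The neighbours in the order were tendon-like mesenchyme at 31.3 and 25.2 CPM, endothelial-like cells at 22.3 and 16.9, the Pax2/Zic1 cluster at 21.0 and 34.4 and immune-like cells at 19.9 and 13.4. The intervals of RPE-like cells and the next class overlapped in both libraries, so the first place of Bmp2 is not separated by counting error. Bmp4 stood at 102 CPM (91.7 to 112) and 85.9 (73.1 to 100) in RPE-like cells, clear of periocular mesenchyme-like cells at 32.8 (30.7 to 35.1) and 42.8 (39.9 to 45.9). Bmp7 stood at 122 CPM (111 to 133) and 115 (100 to 132), clear of pericyte-like cells at 41.4 (33.2 to 50.9) and 36.9 (28.9 to 46.4). In erythroid-like cells Bmp2 had no UMI in 475 control and 421 mutant cells, and Bmp4 and Bmp7 had 1 or 2 per library.

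Outside the RPE these BMP genes parted. Bmp4 in periocular mesenchyme-like cells was richest in the cluster led by Mfap5, Osr2 and Foxl2, at 58.8 and 75.4 CPM, against 18.4 and 19.1 in the Tagln cluster and 18.7 and 31.4 in the cluster led by Spp1 and Mgp. Bmp7 was found in surface epithelium-like cells at 37.2 and 29.0 CPM and, among retinal neurons, in the cluster led by Onecut2, Tfap2a and Lhx1, genes of horizontal and amacrine cells, at 74.1 and 46.3 CPM, while the Ptf1a cluster held 1.5 and 1.12. Retinal progenitor-like cells were low for Bmp2 (0.304 and 0.847 CPM), Bmp4 (1.25 and 0.847) and Bmp7 (1.25 and 1.15), beside 0 and 0, 0.263 and 0.147, and 0.263 and 0.294 CPM in erythroid-like cells. Bmp5 was rare everywhere, with 44 UMIs in all control and 60 in all mutant cells kept. Its largest sums were 17 and 26 UMIs in periocular mesenchyme-like cells, 10 and 3 in RPE-like cells and 4 and 15 in pericyte-like cells.

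Bmp4 marks the dorsal side of the optic cup early in development, so retinal progenitor-like cells were split by a UMI of the dorsal factor Tbx5 or the ventral factor Vax2. In control, 3 Bmp4 UMIs fell in 89 Tbx5 cells, 2.63 CPM (0.542 to 7.68), and 18 in 938 Vax2 cells, 1.52 CPM (0.903 to 2.41). In mutant, 2 fell in 131 Tbx5 cells, 1.24 CPM (0.150 to 4.49), and 6 in 1360 Vax2 cells, 0.368 CPM (0.135 to 0.80). A difference of Bmp4 between Tbx5 and Vax2 cells was therefore not detectable at this depth in either library.

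The share of each ligand's UMIs held by a class shows where the transcripts were, given how many cells of each class were caught. Periocular mesenchyme-like cells held the most for 5 of the 7: 54.8% and 43.3% for Tgfb3, 44.4% and 34.7% for Bmp2, 53.7% and 62.9% for Bmp4, 38.6% and 43.3% for Bmp5 and 35.9% and 43.0% for Bmp7. This class depends on the clustering. At a Leiden resolution of 0.5 no cluster took its name, and a cluster led by Osr2 and Mfap5, with 1269 control and 929 mutant cells, was named tendon-like. For Tgfb2 the retinal progenitor-like cells led, with 31.1% (30.3% to 31.9%) in control and 47.1% (46.3% to 48.0%) in mutant. For Tgfb1 endothelial-like cells held 29.1% and immune-like cells 28.2% in control, with overlapping intervals, and immune-like cells held 42.9% in mutant. RPE-like cells, at 3.15% and 1.53% of cells, held 17.7% and 18.9% of Bmp2, 23.3% and 12.5% of Bmp4, and 31.9% and 19.2% of Bmp7. Thus the RPE-like share of Bmp4 and Bmp7 was lower in the mutant library and that of Bmp2 was not. The retinal progenitor-like class numbered 2361 control and 3513 mutant cells and the periocular mesenchyme-like class 1790 and 1291.

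**Figure D2:**
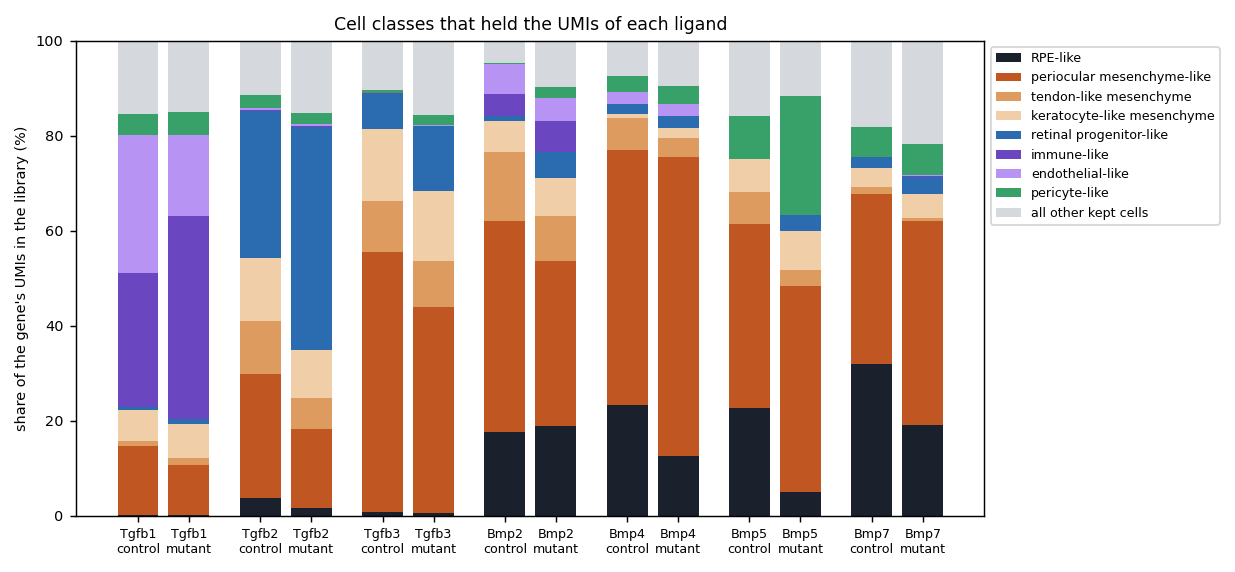
Share of each ligand's UMIs (percent of the UMIs of that gene in the kept cells of a library) held by 8 cell classes, with a bar for the control and a bar for the mutant library. RPE-like cells (black) held 31.9% of Bmp7 in control and 19.2% in mutant, and 17.7% and 18.9% of Bmp2.

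Summed over all kept cells, 5 of the ligands were lower in the mutant library, with ratios of 0.680 for Bmp2, 0.746 for Bmp4, 0.747 for Bmp7, 0.811 for Tgfb3 and 0.900 for Tgfb2, against 1.02 for Tgfb1 and 1.32 for Bmp5. In such a sum, fewer cells of a class and less RNA per cell cannot be told apart. The sums were therefore recomputed with each class kept at its control level and weighted by its share of the mutant library's UMIs. That mix alone gave ratios of 0.695 for Bmp2, 0.664 for Bmp4, 0.718 for Bmp7, 0.791 for Tgfb3 and 0.944 for Tgfb2. What remained after the mix was 0.979 for Bmp2, 1.12 for Bmp4, 1.04 for Bmp7, 1.02 for Tgfb3 and 0.953 for Tgfb2. For Bmp5, at 44 and 60 UMIs, the mix gave 0.732 and 1.80 remained. The mix was not split by class, and the levels within classes are given next.

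Within RPE-like cells, where Myrf is normally active and where it was deleted, Bmp2 was the ligand with a higher level in the mutant library and an interval that left out 1. The 140 UMIs in 363 control cells and the 105 UMIs in 192 mutant cells gave 37.1 and 56.7 CPM, a ratio of 1.53 (1.17 to 1.98) or 0.61 on the log2 scale. Of the 5 ligands with at least 20 UMIs over both libraries, Bmp2 was the 1 past 1.5-fold, and none was lower by that much. Of all 10970 genes with that many UMIs in RPE-like cells, 5.05% were higher and 8.48% lower in mutant past 1.5-fold. The share of cells with a Bmp2 UMI was 25.1% (20.7% to 29.9%) in control and 26.6% (20.5% to 33.4%) in mutant at unequal depth. With each cell thinned to 2000 UMIs, which left 244 and 122 cells, it was 6.56% and 9.02%. Without the 5 richest cells of each library the log2 ratio was 0.48, and in Xist-positive cells free of Y-linked UMIs it was 0.59. It was 0.060 when cells were held to a mitochondrial share of at most 5%, which left 29 and 16 Bmp2 UMIs in 141 and 91 cells.

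Bmp4 and Bmp7 did not show the same difference. Bmp4 was counted 383 and 159 times, 102 and 85.9 CPM, a ratio of 0.845 (0.698 to 1.02). Bmp7 was counted 459 and 213 times, 122 and 115 CPM, a ratio of 0.945 (0.80 to 1.11). These 2 intervals hold 1, but the values moved with the cells used. The log2 ratio of Bmp4 was 0.17 at a mitochondrial share of at most 5%, -0.67 after thinning and -0.82 without cells holding markers of other classes, and that of Bmp7 was -0.50 in Xist-positive cells free of Y-linked UMIs and -1.82 without cells over 2000 UMIs, where 18 and 3 UMIs were left. Tgfb3, at 15 and 10 UMIs, had a ratio of 1.36 (0.545 to 3.23), and Bmp5, at 10 and 3 UMIs, of 0.611 (0.108 to 2.37), which set almost no limit. Tgfb1 had 2 UMIs in each library and is given no ratio.

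Tgfb2 gave 521 and 217 UMIs in RPE-like cells, 138 and 117 CPM, and a ratio of 0.848 (0.721 to 0.996). In Xist-positive cells free of Y-linked UMIs (187 and 42) the log2 ratio of Tgfb2 was 0.086 rather than -0.24. That set needs a detected Xist UMI, so it selects by depth as well as by sex. It kept 187 of 363 control cells with 499 of the 521 Tgfb2 UMIs, and 42 of 192 mutant cells with 128 of the 217. The Tgfb2 ratio also depended on the deepest cells. Among the 65 control and 35 mutant RPE-like cells over 20000 UMIs, a limit chosen as an alternative, Tgfb2 stood at 175 CPM (156 to 196) and 115 (94.4 to 140), a ratio of 0.658 (0.522 to 0.824). Among the 298 and 157 shallower cells it stood at 107 (92.8 to 122) and 119 (98.0 to 143), and its ratio was 1.12 (0.881 to 1.41). The deep control cells also carried more of the 10 mesenchyme markers, 734 CPM summed against 452 in deep mutant cells, while shallower cells carried 95.2 and 307. The keratocyte-like mesenchyme markers went the other way in deep cells, at 1015 and 1785 CPM, and stood at 2213 and 2050 in shallower cells. That list holds Ptgds, which also led the melanocyte-like cluster, and Kcnj13, which the paper names among genes of RPE-driven defects. Its sum can therefore not be read as mesenchymal RNA. The RPE markers summed to 20431 and 16406 CPM in shallower and 13486 and 17520 in deep cells. The part of these marker differences in the ligand values by depth was not tested. Bmp4 went the other way from Tgfb2 by depth, at 125 and 87.1 CPM in the shallower cells, a ratio of 0.696 (0.536 to 0.896), and 73.9 and 84.6 in the deep cells, a ratio of 1.15 (0.852 to 1.53). For Bmp2 the ratio was above 1 in both, 1.37 (0.958 to 1.94) in shallower and 1.80 (1.2 to 2.70) in deep cells, and for Bmp7 it was 0.957 and 0.942. The retinal progenitor markers summed to 1153 CPM in control and 1656 in mutant RPE-like cells, with 8 of 10 higher in mutant and none at 0, and their part in these ratios was not tested.

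**Figure D3:**
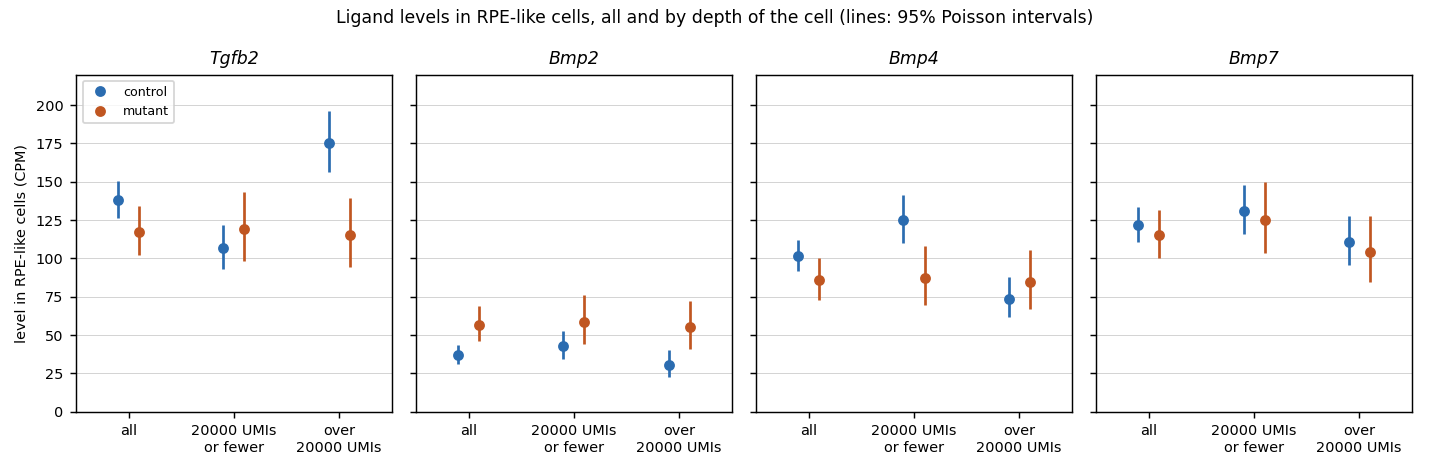
Level of Tgfb2, Bmp2, Bmp4 and Bmp7 (CPM) in RPE-like cells of the control and the mutant library, for all cells and for cells at or below and over 20000 UMIs, with exact 95% Poisson intervals as lines. The Bmp2 point is higher in mutant in each set, though the interval of its ratio in the shallower cells holds 1 (0.958 to 1.94). Tgfb2 is lower in mutant in all cells and in the deep cells (175 against 115 CPM) but not in the shallower cells. Bmp4 is lower in the shallower cells (125 against 87.1 CPM) but not in the deep cells, and its ratio in all cells has an interval that holds 1 (0.698 to 1.02).

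Individual RPE-like cells often carried more than 1 of these transcripts. Bmp4 and Bmp7 were seen together in 118 of 363 control and 51 of 192 mutant cells, and 77.1% of control cells with a Bmp4 UMI had a Bmp7 UMI against 33.3% of those without. After thinning to 2000 UMIs these shares were 26.3% and 20.4% in control and 28.6% and 21.3% in mutant, with 10 of 244 and 4 of 122 cells holding both. The difference between cells with and without Bmp4 was thus smaller at equal depth.

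In periocular mesenchyme-like cells, the neural crest cells that form sclera, choroid and cornea and that Rx>cre does not target, the ligands differed in both directions. Bmp4 was higher in mutant, 32.8 against 42.8 CPM, a ratio of 1.3 (1.18 to 1.44), and so was Bmp7, 19.2 against 25.7 CPM, a ratio of 1.34 (1.18 to 1.52). Tgfb2 was lower, 136 against 117 CPM, a ratio of 0.855 (0.811 to 0.902), as was Bmp2, 13.0 against 10.4 CPM, a ratio of 0.794 (0.663 to 0.95). Tgfb3 was at 0.957 (0.865 to 1.06) and Tgfb1 at 1.12 (0.867 to 1.44). Bmp5, with 17 and 26 UMIs, was the only 1 of the 7 past 1.5-fold, at 2.21 (1.15 to 4.34), where 6.06% of 14138 genes were higher and 2.53% lower by that much. At a mitochondrial share of at most 5% its log2 ratio was -0.40, and that of Bmp2 in this class was 0.18 after thinning to 2000 UMIs rather than -0.33. The clusters were not alike. Bmp4 differed most in the Spp1 and Mgp cluster, at 1.68 (1.34 to 2.12), and was at 1.04 (0.821 to 1.31) in the Tagln cluster, whereas Bmp7 was at 1.54 (1.23 to 1.94) in the Tagln cluster and at 0.969 (0.748 to 1.25) in the Spp1 cluster. Tgfb2 was lowest in the Osr2 and Foxl2 cluster, at 0.758 (0.692 to 0.829). In these cells the retinal progenitor markers summed to 530 and 819 CPM, with 10 of 10 higher in mutant and none at 0, the photoreceptor markers to 7.99 and 34.4 CPM, with 8 of 8 higher, and the 9 erythroid markers to 11116 and 7294 CPM, with none higher. The part of these transcripts in the ligand ratios was not tested.

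In retinal progenitor-like cells, also a target of Rx>cre, Tgfb2 stood at nearly equal levels: 4375 UMIs in 2361 control cells and 6166 in 3513 mutant cells gave 166 and 169 CPM, a ratio of 1.01 (0.975 to 1.05). Tgfb3 was at 1.11 (0.888 to 1.39), Bmp4 at 0.675 (0.400 to 1.14) and Bmp7 at 0.915 (0.566 to 1.49). Bmp2, with 8 and 31 UMIs, was the 1 of 5 ligands past 1.5-fold, at 2.79 (1.25 to 7.01), where 3.45% of 13904 genes were higher and 2.16% lower by that much. In the mutant library 5 cells held 51.6% of those 31 UMIs, and among Xist-positive cells free of Y-linked UMIs the log2 ratio was -0.65.

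The other classes gave a few further differences beyond counting error. Tgfb2 was higher in the Pax2/Zic1 cluster of the mutant library, at 1.36 (1.16 to 1.60), and lower in keratocyte-like mesenchyme, at 0.816 (0.760 to 0.876), in pericyte-like cells, at 0.806 (0.691 to 0.939), and in surface epithelium-like cells, at 0.642 (0.455 to 0.902). In the surface epithelium-like class 5 cells held 64.6% of the control and 55.4% of the mutant Tgfb2 UMIs, and the log2 ratio was 0.29 at a mitochondrial share of at most 5%. Tgfb3 was higher in tendon-like mesenchyme, at 1.32 (1.06 to 1.65), where Tgfb2 was at 0.926 (0.851 to 1.01). In the Pax2/Zic1 cluster Bmp7 was lower, with 19 and 8 UMIs, 33.2 and 12.5 CPM, a ratio of 0.376 (0.143 to 0.900). In pericyte-like cells Tgfb3 had 9 and 34 UMIs, a ratio of 4.10 (1.93 to 9.73), and Bmp2 and Bmp5 had 2 and 13 and 4 and 15 UMIs. The 5 richest mutant cells held 47.1% of the Tgfb3 UMIs. With doublets kept its log2 ratio was -0.11, but the cells were then clustered anew and the pericyte name fell on other cells. That cluster, led by Rgs5, Tagln and Crym, held 725 control and 540 mutant cells, against 157 and 148 in the class reported here. The value is therefore not one for the same class. In the reported pericyte-like class the erythroid markers summed to 9985 CPM in control and 260 in mutant and the pericyte markers to 629 and 1025, and their part in these values was not tested. Tgfb1 in its main classes was at 1.09 (0.936 to 1.27) in immune-like and 0.866 (0.716 to 1.05) in endothelial-like cells.

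**Figure D4:**
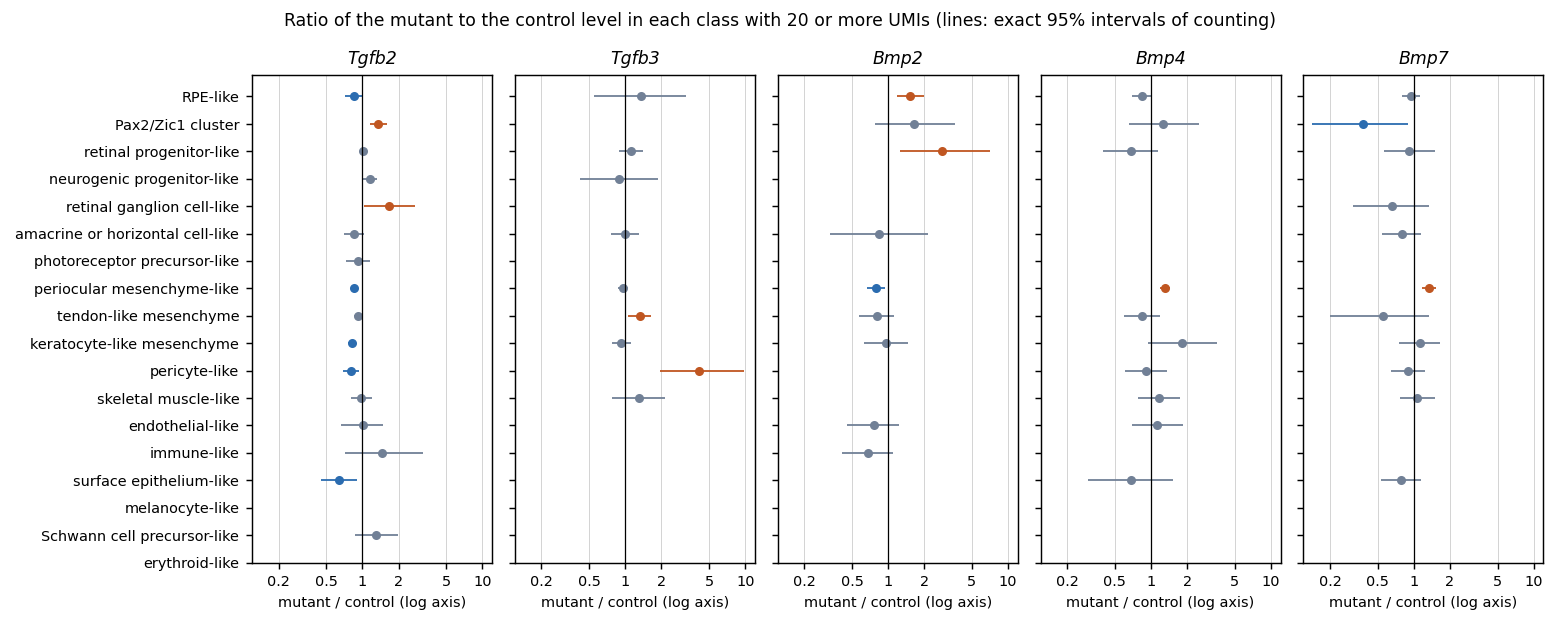
Ratio of the mutant to the control level (log axis) of 5 ligands in each class with at least 20 UMIs over both libraries, with exact 95% intervals as lines, in orange where the interval lies above 1 and in blue where it lies below. Bmp2 is above 1 in RPE-like and retinal progenitor-like cells and below 1 in periocular mesenchyme-like cells, and Bmp4 and Bmp7 are above 1 in periocular mesenchyme-like cells.

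The rest of the pathway was read in RPE-like cells from lists of 84 other genes, of which 52 reached 20 UMIs. Of these, 8 were higher and 6 lower in mutant past 1.5-fold, beside the 5.05% and 8.48% over all genes, and their median log2 ratio was -0.07 beside -0.06 over all genes. Secreted BMP antagonists were the list with most members lower: of 11 tested, 5 were lower past 1.5-fold and none higher. Smoc2, a matricellular inhibitor of BMP signalling, was counted 46 and 8 times (ratio 0.354, 0.144 to 0.758). Follistatin, Fst, which binds activins and BMPs, was counted 66 and 15 times (0.463, 0.245 to 0.820). Nbl1, a DAN family antagonist, was counted 68 and 17 times (0.509, 0.280 to 0.876), and Wfikkn2, which binds Gdf8 and Gdf11, 72 and 20 times (0.566, 0.326 to 0.939). The fifth, Grem1, had 26 and 8 UMIs and an interval that held 1. The antagonists Sostdc1 and noggin, named after their values were seen, did not share the direction. Sostdc1, counted 1189 and 725 times, was at 1.24 (1.13 to 1.36), and Nog was at 1.05 (0.733 to 1.49). The median log2 ratio of the list was -0.09. In the mutant library 5 cells held 73.3% of the Fst and 75.0% of the Smoc2 UMIs.

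Among receptors, the 3 TGF-beta receptor genes tested lay between 0.845 and 0.979 with intervals that held 1. Of 7 BMP and activin receptors, Bmpr1b at 12 and 16 UMIs (2.72, 1.21 to 6.29) and Acvr1b at 20 and 20 UMIs (2.04, 1.04 to 3.99) were higher past 1.5-fold, and the other 5 were not past it in either direction. Of the Smads, none of 7 tested passed 1.5-fold. The inhibitory Smad7, chosen after its value was seen, was at 1.41 (1.02 to 1.94), and the other 6 lay between 0.733 and 0.909 with intervals that held 1. Of other ligands, Bmp6 at 29 and 26 UMIs (1.83, 1.03 to 3.21) and the stress-induced Gdf15 at 3 and 25 UMIs (17, 5.18 to 87.8) were higher in mutant, though 5 mutant cells held 72.0% of the Gdf15 UMIs. Of the 17 listed ligands, 4 were tested, and the other two, Gdf11 and Inhbb, were not past 1.5-fold.

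Of 8 genes of TGF-beta latency and activation, thrombospondin 1, Thbs1, which can free latent TGF-beta, was higher at 305 and 300 UMIs, 80.9 and 162 CPM (2.00, 1.70 to 2.36). Ltbp1, which tethers latent TGF-beta to the matrix, was lower at 95 and 30 UMIs (0.643, 0.412 to 0.979). Of 6 BMP-responsive genes, the Id genes, direct targets of BMP signalling given here after their values were seen, were not past 1.5-fold. Id1 was at 0.858 (0.720 to 1.02), Id2 at 0.819 (0.730 to 0.918) and Id3 at 0.947 (0.892 to 1.00), while Atoh8 at 28 and 27 UMIs was higher (1.96, 1.11 to 3.46). Of 6 TGF-beta-responsive genes, Ctgf at 51 and 66 UMIs (2.64, 1.80 to 3.88) and Cyr61 at 82 and 61 UMIs (1.51, 1.07 to 2.14), both matricellular genes known also to respond to other signals, were higher, and the other 4 were not past 1.5-fold. In a separate list of dorsal or ventral retina genes, not among the 84, 6 of 8 were tested, and the retinoic acid synthesis genes Aldh1a1 (2.25, 1.31 to 3.90) and Aldh1a3 (1.76, 1.31 to 2.36) were higher in mutant RPE-like cells, where 5 mutant cells held 71.0% and 70.8% of their UMIs.

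**Figure D5:**
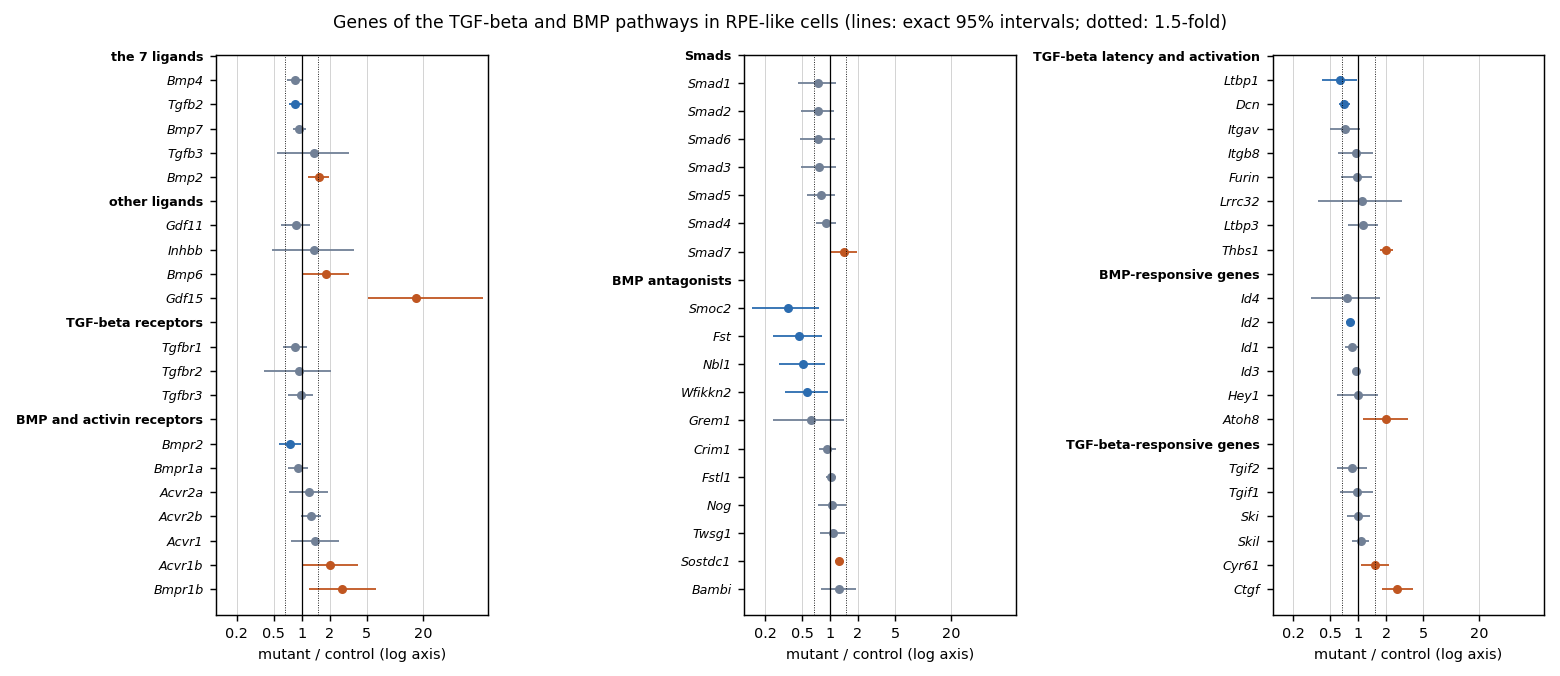
Ratio of the mutant to the control level (log axis) in RPE-like cells for the 5 ligands and the 52 other pathway genes with at least 20 UMIs, by list, with exact 95% intervals as lines and dotted lines at 1.5-fold. Intervals above 1 are orange and below 1 blue: Bmp2, Thbs1 and Ctgf lie above 1, and Smoc2, Fst, Nbl1 and Wfikkn2 lie below.

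The genes whose levels were most like each ligand's over 16 classes in both libraries (32 points, log2 of CPM plus 1, among 14026 genes) are given as a description. For Tgfb1 they were Icam1 (Pearson r 0.913), Trim47 and Lgals9, for Tgfb2 Gpx8 (0.915), Rab34 and Ttc23, and for Tgfb3 Fgf18 (0.851), Col6a1 and Cxcl14. For Bmp2 they were Sgk1 (0.842), Man1a and Prdm16. For Bmp4 the nearest was Gm15222 (0.932), an antisense gene that overlaps Bmp4 on the opposite strand, before Lamb1 and Timp1. Bmp7 was nearest Cryab (0.888), Wdr86 and Phlda2, and Bmp5, at its low counts, Arhgef16 (0.798), Sostdc1 and Wfikkn2. The points share libraries and the same cells, so these values are not independent.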

How the data were processed

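The authors aligned and counted the droplet libraries on mouse mm10 (GRCm38) and deposited a matrix of UMI counts per gene and cell for each library. The submitters' notes name Cell Ranger 7.1.0 and Seurat 4.1.1, while the matrix headers carry software version 3.1.0. The study states an upper limit of 2000 counts per cell. If that means UMIs, 79.1% and 80.6% of the deposited barcodes exceed it, but it may refer to another quantity.

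Barcodes with under 200 genes or over 15% mitochondrial UMIs were removed, then doublets called with Scrublet, which marked 3.55% and 3.40% against an expected 9.55% and 10.4%. Cells of both libraries were clustered together (scanpy 1.11.5, 2000 variable genes, less the ligands' pathway, marker, mitochondrial, haemoglobin, Xist and Y-linked genes, which left 1859, 30 components, 15 neighbours, Leiden resolution 1.0) without integration, and clusters named from marker lists. The rules that leave a cluster unnamed were set after seeing the data. UMIs were summed per class and library and divided by the class total (CPM). Levels have exact Poisson intervals, ratios exact conditional binomial intervals, and shares Clopper-Pearson intervals, all at 95%. Ratios are not given where both sums are at or under 3 UMIs, and counts of genes past 1.5-fold cover genes whose UMIs in the class, both libraries added, come to 20 or more. The ratio calculation was run on simulated counts with known changes, which checks the calculation and not the differences reported here. Gene positions are from GENCODE vM21, matched by identifier for 30934 of 31053 genes. Named pathway genes are those past 1.5-fold whose interval leaves out 1, and the 3 genes most like each ligand by Pearson correlation over classes. Others are named with a note. The alternatives were other filters, resolutions, scalings, thinning to 2000 UMIs, subtraction of the level in erythroid-like cells, Xist-positive cells free of Y-linked UMIs, and removal of rich or mixed cells. Other resolutions were run for RPE-like cells only. The Xist-positive set needs a detected UMI and so also selects by depth. The ligands, lists and classes were chosen with earlier results of these data known.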

Additional observations from a re-analysis of the deposited data

Results flagged for a closer look

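Tgfb2, Bmp2 and Bmp7 had ratios in opposite directions in different classes, each past counting error, and because each genotype is 1 library the differences between classes were not tested. On the log2 scale, Tgfb2 in mutant against control was 0.44 in the Pax2/Zic1 cluster and 0.73 in retinal ganglion cell-like cells (26 and 56 UMIs). The latter cells stood at 3.79 and 6.31 CPM, beside a background of 0.263 and 1.32 CPM in erythroid-like cells. Tgfb2 was -0.23 in periocular mesenchyme-like cells, -0.29 in keratocyte-like mesenchyme, -0.24 in RPE-like cells (from 0.086 to 0.95 in the 4 alternatives that turned it), -0.31 in pericyte-like cells and -0.64 in surface epithelium-like cells, where it was 0.29 at a mitochondrial share of at most 5%. Bmp2 was 1.48 in retinal progenitor-like cells and 0.61 in RPE-like cells, but -0.33 in periocular mesenchyme-like cells. The first turned to -0.65 in Xist-positive cells free of Y-linked UMIs and the last to 0.18 after thinning. Bmp7 was 0.42 in periocular mesenchyme-like cells and -1.41 in the Pax2/Zic1 cluster (19 and 8 UMIs).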

How the results depend on the processing

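No paired analysis was possible because each genotype is 1 library and the labels hold no replicate numbers. Of the main values under their alternatives, 62 stayed within counting error, 19 moved and 4 reversed, where a reversal is a change of sign in a value whose interval left out no difference and other sign changes count as moved. Of the values for single classes, 383 stayed, 84 moved and 5 reversed. The causes were not tested. In RPE-like cells (log2 ratios), Tgfb2 was 0.16 without cells over 20000 UMIs, 0.52 after thinning, 0.086 in Xist-positive cells free of Y-linked UMIs, 0.95 without cells holding Pax3 or other markers, and -1.56 without cells over 2000 UMIs, where 5 and 1 UMIs were left. Bmp2 ranged from 0.060, close to no difference (mitochondrial share at most 5%, 29 and 16 UMIs), to 1.18 (without cells over 2000 UMIs, 3 and 4 UMIs). Bmp4 was 0.17 at the 5% limit, -0.52 without cells over 20000 UMIs, -0.67 thinned and -0.82 without cells holding other markers. Bmp7 was -0.34 at the 5% limit, -1.82 without cells over 2000 UMIs, -0.35 with equal weight per cell and -0.50 in Xist-positive cells free of Y-linked UMIs. Tgfb3 was 1.76 with equal weight per cell. Elsewhere, Bmp2 in periocular mesenchyme-like cells was 0.18 thinned, and Bmp5 there -0.40 at the 5% limit. Bmp2 in retinal progenitor-like cells was -0.65 in Xist-positive cells free of Y-linked UMIs, and Tgfb2 in surface epithelium-like cells was 0.29 at the 5% limit. Tgfb3 in pericyte-like cells was -0.11 with doublets kept. There the pericyte name fell on a larger cluster of 725 and 540 cells, against 157 and 148 as reported. At a minimum of 50 UMIs, 5 of 44 pathway genes were higher and 5 lower in RPE-like cells (3.09% and 5.25% of all genes), and at 2-fold 5 of 52 were higher and 2 lower (1.45% and 2.47% of all). Thinned Bmp4 levels in progenitor-like cells rest on 0 to 3 UMIs and give no order: with Tbx5, 0 CPM in control (0 to 108) and 12.8 in mutant (0.325 to 71.4; 1 UMI in 39 cells), and with Vax2, 4.76 (0.982 to 13.9; 3 UMIs) and 0 (0 to 3.87). Depth limits Tgfb1, Tgfb3 and Bmp5 in RPE-like cells, where no setting gives a firm ratio. The split of RPE-like cells by depth was chosen after seeing the data.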
